A study of Mus musculus with 12 samples.

Results

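Rab GTPases are small GTP-binding proteins that mark the membranes of a cell and recruit the tethers, motors and adaptors that move and fuse vesicles. Each is switched on by an exchange factor, switched off by a GTPase-activating protein, usually one with a TBC domain, and drawn off the membrane by a GDP dissociation inhibitor. In microglia, the resident macrophages of the brain, they direct phagosome maturation, endosomal sorting, lysosomal delivery and the release of cytokines and vesicles.

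The family was taken as every gene in the deposited tables whose symbol is Rab followed by a number and at most 1 letter, which gave 59 of 41325 genes. RNA was sequenced from the microglial line IMG, mouse cells that were immortalised to grow in culture, on a wild-type C57Bl6/J background, all at the same passage and exposed for 8 h. There were 4 libraries from cells given oAb, 4 from cells given fAb and 4 from cells given a scramble control. Both treatments are forms of the amyloid beta peptide, which builds up as plaques in Alzheimer's disease. In the submitters' design text oAb stands beside fibrillar and fAb beside oligomeric, which crosses the initials, so only the abbreviations are used here. Nothing in the labels says that the 4 libraries of a group came from separate cultures, so the p-values below measure the spread between these libraries, which may be technical.

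The libraries held 13638721 to 18124419 counts, and no label names a batch. Scramble library 3 stood apart, with a correlation of log2 expression of 0.946 to 0.967 with the other scramble libraries, against 0.989 or more within the oAb and fAb groups, and its ribosomal protein genes took 10.6% of the counts, where 4.73% to 6.73% was seen elsewhere. The 12 libraries also fell into 2 sets by how counts were divided between Timm23 and Gm10273. The Timm23 share was 94.6% to 98.3% in oAb libraries 1 and 2 and scramble libraries 2, 3 and 4 (the Timm23 set) and 17.5% to 38.5% in oAb libraries 3 and 4, all fAb libraries and scramble library 1 (the Gm10273 set). Of 14 microglia and macrophage markers, 12 had counts in oAb, 13 in fAb and 13 in scramble libraries, and their summed level was 3391 to 3675 CPM (counts scaled to the library total) in oAb, 3312 to 3561 CPM in fAb and 4484 to 4983 CPM in scramble libraries. The markers of resident microglia were low or missing: Sall1 had 0 counts in all, Tmem119 had 10, and P2ry12 averaged 0.871 CPM in oAb, 0.722 CPM in fAb and 6.63 CPM in scramble libraries. The 6 neuronal markers summed to 9.96 to 12.3 CPM in oAb, 9.37 to 12.1 CPM in fAb and 0.953 to 4.11 CPM in scramble libraries, nearly all of it at Map2, with Rbfox3 at 0. The 5 oligodendrocyte markers summed to 40.9 to 44.9 CPM in oAb, 45.3 to 48.2 CPM in fAb and 92.2 to 141 CPM in scramble libraries, nearly all at Mbp, with Mog and Sox10 at 0. The 5 astrocyte markers summed to 0.944 to 1.85 CPM in oAb, 1.35 to 1.93 CPM in fAb and 0.627 to 0.807 CPM in scramble libraries, with Aqp4 at 0. The 6 endothelial and fibroblast markers summed to 2.95 to 3.77 CPM in oAb, 2.21 to 3.52 CPM in fAb and 0.07 to 0.348 CPM in scramble libraries, mostly Dcn (2.64, 2.37 and 0.015 CPM), with Cldn5 and Pdgfra at 0. The part of these markers in the Rab results was not tested.

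By TPM, a level scaled for transcript length and library total that can be compared between genes, a few Rab genes carried much of the family. Rab7, which drives fusion of late endosomes with lysosomes, averaged 341 ± 7.52 TPM in oAb, 346 ± 9.30 TPM in fAb and 323 ± 33 TPM in scramble libraries (SD, n = 4 each). Rab5c, which acts in early endosome fusion, averaged 306 ± 27.0, 293 ± 8.94 and 240.0 ± 11.0 TPM in the same groups. Rab1b, which acts in transport between the endoplasmic reticulum and the Golgi, averaged 301 ± 32.8 TPM in oAb, 265 ± 12.5 TPM in fAb and 356 ± 49.7 TPM in scramble libraries. Rab1b and Rab7 held the top ranks in scramble libraries and differed there by less than the SD of Rab1b. The 5 most abundant members held 48.1% of the family's TPM in oAb, 46.7% in fAb and 47.1% in scramble libraries. The family summed to 2874 ± 84.0 TPM in oAb, 2902 ± 50.5 TPM in fAb and 2683 ± 267 TPM in scramble libraries, where the lowest library had 2284 TPM. Among tested members, rank within the family moved by 8 or more places for Rab20, Rab31 and Rab11b. Rab20 stood at rank 14 in oAb and 14 in fAb against 30 in scramble libraries, Rab31 at rank 13 in oAb and 11 in fAb against 4, and Rab11b at rank 25 in oAb and 25 in fAb against 17.

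**Figure D1:**
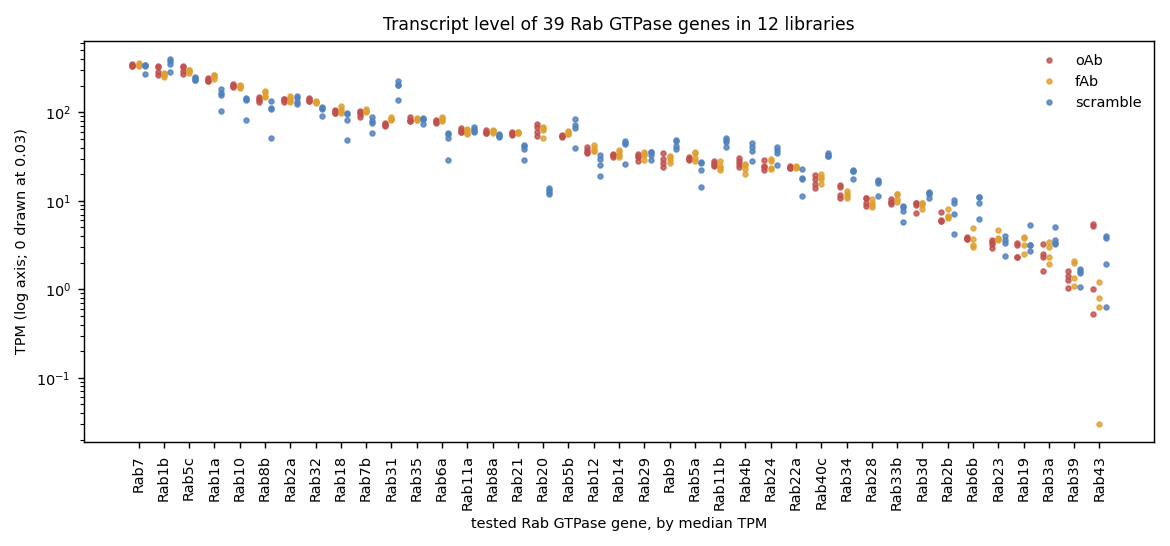
Authors' TPM on a log axis for the 39 Rab GTPase genes that could be tested, ordered by their median over 12 libraries; each point is 1 library, coloured by group (oAb, fAb, scramble), and a value of 0 is drawn at 0.03 TPM. Rab7 is at the top, the scramble points of Rab20 lie far below its oAb and fAb points, those of Rab31 lie above, and Rab43 spreads within groups.

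Of the 59 members, 20 were below the count filter in every comparison. Rab17, Rab27b, Rab36, Rab38, Rab39b, Rab40b and Rab9b had no count in any library, which allows up to 0.0466 CPM in the pooled oAb libraries, 0.0431 in fAb and 0.0513 CPM in scramble (3 counts of the group total, for counting error only). Rab27b and Rab38, the paralogs of the granule and melanosome GTPases Rab27a and Rab32, were therefore not detectable at this depth. The other 13, Rab13, Rab15, Rab25, Rab26, Rab27a, Rab30, Rab33a, Rab37, Rab3b, Rab3c, Rab42, Rab44 and Rab4a, had 1 to 59 counts over all 12 libraries. Rab27a, which docks secretory lysosomes and multivesicular bodies at the plasma membrane, had 1, 1, 0 and 0 counts in oAb libraries, 0, 5, 2 and 1 in fAb libraries and 9, 6, 4 and 6 in scramble libraries. By normalised CPM, at most 0.0728 CPM in oAb and 0.279 CPM in fAb stood against at least 0.290 CPM in scramble libraries, so no treated library reached a scramble one, though fAb library 2 came close and overlapped in raw counts. With 2 counts in all against 25, its ratio in oAb over scramble was 0.0727 (exact 95% interval 0.00835 to 0.292), and with 8 counts the ratio in fAb was 0.269 (0.105 to 0.615), both per library total and for counting error only. Rab37, a GTPase of secretory granules, had 8 counts in oAb and 16 in fAb libraries and 0 in scramble libraries. Against a floor of 3 counts over the scramble group, Rab37 was 2.42-fold higher in oAb and 4.48-fold higher in fAb. The counting error of the treated libraries is left out there, so these are not lower bounds. In oAb library 4 Rab37 had 0 counts, as in the scramble libraries. Rab4a, of the fast recycling route, had 4, 0, 0 and 2 counts in oAb, 0, 2, 3 and 6 in fAb and 3, 2, 3 and 5 in scramble libraries, which overlapped. With no count filter, Rab27a and Rab37 passed with oAb (edgeR adjusted p = 0.00367 and 0.0457) and Rab37 and Rab30 with fAb (0.00433 and 0.0465). In the same fits 35.9% of all genes passed with oAb and 39.5% with fAb.

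The 39 testable members were the same in all comparisons. With oAb, 16 rose and 7 fell against scramble by edgeR's quasi-likelihood test at an adjusted p under 0.05, which is 59.0% of the members tested, against 52.2% of all 11033 genes tested (25.2% higher and 27% lower). With fAb, 16 rose and 7 fell, 59.0% of members against 56.3% of 11074 genes (27.6% higher and 28.8% lower). A share of calls this near the background says nothing particular of the family. Its median log2 fold change was 0.18 with oAb, against -0.07 over all genes, and 0.15 with fAb, against -0.04. Both comparisons use the same 4 scramble libraries, so values given side by side below are not independent. In bulk RNA, fewer cells of a type and less RNA per cell cannot be told apart.

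The members' median absolute log2 fold change was 0.47 with oAb and 0.56 with fAb, against 0.47 and 0.49 over all genes, and with a 1.5-fold minimum 13 members stayed called with oAb (37.7% of all genes) and 16 with fAb (40.7%). Rab20, Rab31 and Rab6b were the members called at 2-fold or more with either preparation, 3 of 39, where 21.5% of all genes with oAb and 23% with fAb passed that rule. The libraries of the groups did not overlap for 22 members with oAb (56.4%, against 51.1% of all genes) and for 23 with fAb (59.0%, against 55.4%). Scaling to the upper quartile, which moved the median of all genes to -0.24 with oAb and -0.23 with fAb, gave 14 higher and 10 lower members with oAb and 13 higher and 12 lower with fAb, where 55.7% of all genes with oAb (19.3% higher and 36.4% lower) and 59.9% with fAb (20.5% higher and 39.4% lower) were called. Within the Timm23 set 17 members were called with oAb (33.8% of all genes), and within the Gm10273 set 28 with oAb (64.1%) and 25 with fAb (56.3%). The oAb calls of Rab18, Rab28, Rab34, Rab7, Rab8a, Rab8b and Rab9 were lost within the Timm23 set, of 2 oAb and 3 scramble libraries. The Timm23 set holds no fAb library, and the Gm10273 set has a single scramble library, which was assumed to vary like the others. With the library set as a term in the model, 24 members were called with oAb (52% of all genes) and 13 members stayed called with fAb, 10 higher and 3 lower (34.7% of all genes), while Rab11b, Rab18, Rab22a, Rab23, Rab34, Rab40c, Rab5a, Rab7, Rab8b and Rab9 lost the call. Without scramble library 3, 27 members were called with oAb and 29 with fAb (64.4% and 68% of all genes), adding Rab11a, Rab14, Rab2a and Rab35 in both and Rab29 and Rab8a with fAb. That library was the lowest control for 11 of the 16 members that rose with oAb and 12 of the 16 with fAb. It was the highest control for 4 of the 7 that fell with either. The other way, it was the highest control for 5 that rose with oAb and 4 with fAb, Rab20 among them. For Rab28, Rab31 and Rab6b, which fell, it was the lowest.

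**Figure D2:**
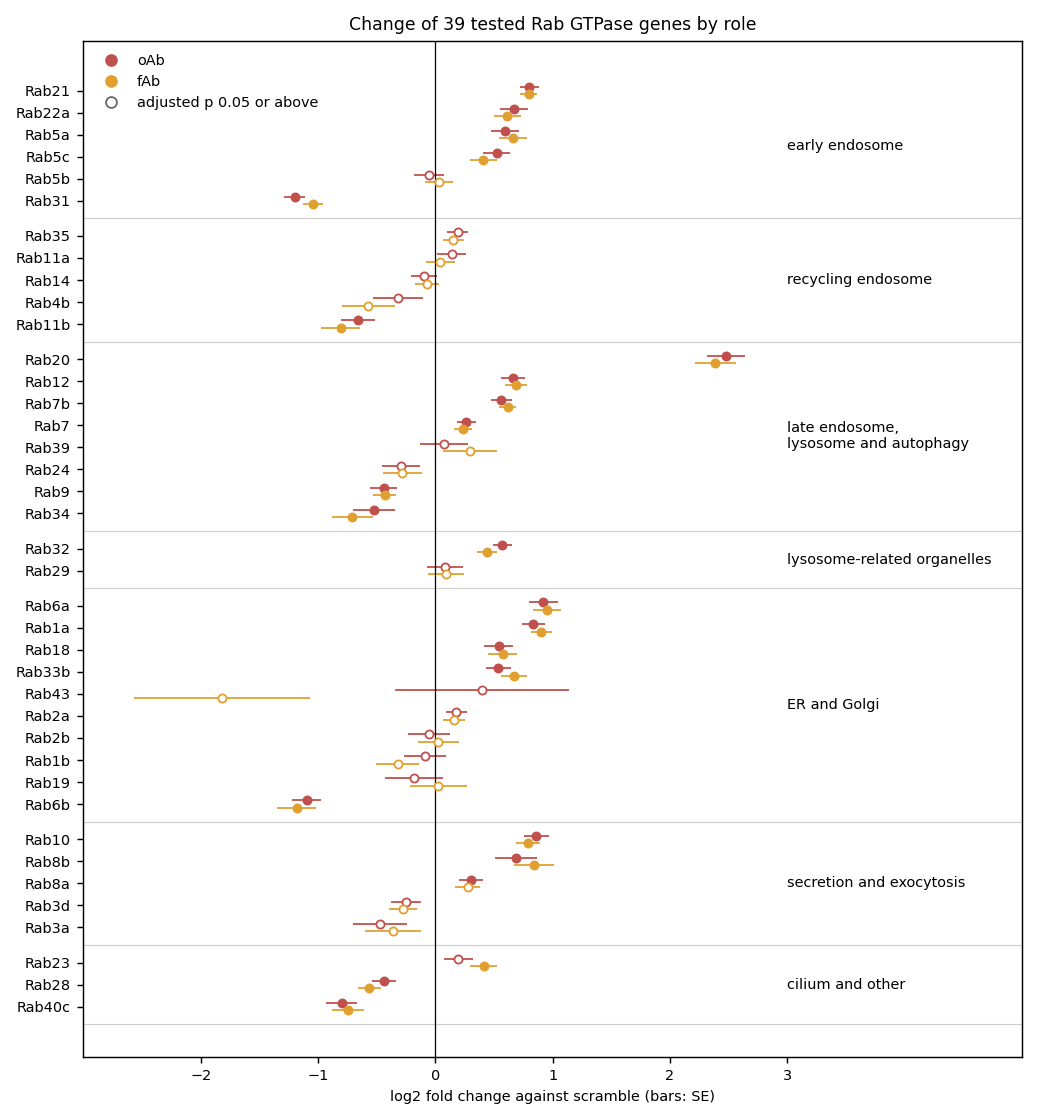
Log2 fold change against scramble (horizontal axis, bars are SE) of the 39 tested Rab GTPase genes, grouped by role, for oAb (red) and fAb (orange); open circles have an adjusted p of 0.05 or above. Rab20 lies alone at the right at 2.48 and 2.39, Rab31 and Rab6b lie beyond -1, and Rab43 has SE of 0.74 and 0.75.

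The promoters of 5 members are shown beside their change, each as the 300 bases from 250 before to 50 after the start of the gene on its own strand, from RefSeq (GRCm38.p6). Rab20 is shown as the member with the largest rise, Rab21 and Rab5a as early endosome members that rose and hold an E-box, Rab22a as one that rose and holds none, and Rab31 as the early endosome member that fell. Capitals mark the E-box CACGTG, the cyclic AMP response element TGACGTCA and, outside these, the hypoxia response core ACGTG; every E-box holds that core. The windows are chr8:11478591-11478890 (minus strand), chr10:115315542-115315841 (minus strand), chr17:53478984-53479283 (plus strand), chr2:173659595-173659894 (plus strand) and chr17:65772703-65773002 (minus strand).
Rab20: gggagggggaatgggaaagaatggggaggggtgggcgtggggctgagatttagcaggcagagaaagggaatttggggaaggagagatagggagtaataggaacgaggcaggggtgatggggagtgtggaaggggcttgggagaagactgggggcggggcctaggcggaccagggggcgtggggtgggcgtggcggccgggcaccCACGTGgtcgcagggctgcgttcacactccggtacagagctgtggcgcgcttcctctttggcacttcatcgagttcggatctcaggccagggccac
Rab21: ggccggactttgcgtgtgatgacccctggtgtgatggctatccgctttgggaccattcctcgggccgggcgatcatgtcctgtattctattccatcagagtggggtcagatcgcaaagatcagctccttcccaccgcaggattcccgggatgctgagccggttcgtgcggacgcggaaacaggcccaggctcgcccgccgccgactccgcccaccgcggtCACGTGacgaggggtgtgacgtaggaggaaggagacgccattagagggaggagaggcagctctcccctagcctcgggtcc
Rab5a: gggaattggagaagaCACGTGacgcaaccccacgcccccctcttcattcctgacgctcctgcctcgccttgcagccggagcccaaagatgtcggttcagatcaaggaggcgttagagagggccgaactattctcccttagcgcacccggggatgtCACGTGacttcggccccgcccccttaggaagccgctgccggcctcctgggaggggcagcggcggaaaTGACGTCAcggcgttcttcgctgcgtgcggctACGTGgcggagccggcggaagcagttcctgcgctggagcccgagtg
Rab22a: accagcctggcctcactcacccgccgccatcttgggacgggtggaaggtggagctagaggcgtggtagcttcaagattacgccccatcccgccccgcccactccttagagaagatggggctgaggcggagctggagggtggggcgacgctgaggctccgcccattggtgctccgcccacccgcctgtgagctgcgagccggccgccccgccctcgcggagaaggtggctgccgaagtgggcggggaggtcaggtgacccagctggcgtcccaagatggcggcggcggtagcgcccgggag
Rab31: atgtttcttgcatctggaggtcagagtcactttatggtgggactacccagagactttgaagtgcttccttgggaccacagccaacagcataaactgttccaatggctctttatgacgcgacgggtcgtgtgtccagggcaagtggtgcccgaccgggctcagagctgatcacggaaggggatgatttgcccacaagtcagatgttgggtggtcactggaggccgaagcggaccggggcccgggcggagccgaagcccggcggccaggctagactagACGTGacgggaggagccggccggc

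The E-box lay at positions -46 to -41 from the RefSeq start of Rab20 and -30 to -25 from that of Rab21. Rab5a had matches at -235 to -230 and -95 to -90, and Rab22a and Rab31 had none. The deposited bounds of Rab20, Rab21 and Rab22a begin upstream of the RefSeq starts, so the E-box of Rab20 lies inside its deposited gene. Over the 48 members with a RefSeq window, 5 held an E-box (10.4%, against 7.15% of 32851 windows of the same length): Rab20, Rab21, Rab5a, Rab23 and Rab24. Of the 36 tested members with a window, 3 of 5 with an E-box rose with oAb and 4 of 5 with fAb, and 11 of 31 without one rose with oAb and 10 of 31 with fAb, beside 25.2% and 27.6% of all genes. Most of the risers, among them Rab6a, Rab1a, Rab10, Rab8b, Rab22a and Rab5c, hold no E-box, and Rab24 holds one and passed with neither preparation. Calls were split by presence for the E-box alone, and Rab21 and Rab5a were picked for print because they rose and hold it. A link between the E-box and the calls was not tested. ACGTG on either strand was in 12 members (25%, against 19.6%). The other letters searched on both strands were rarer: TGANTCA (AP-1) in 2 members (4.17%, against 7.81%), TGACGTCA in 2 (4.17%, against 1.79%), GAGGAAGT (PU.1) in 2 (4.17%, against 3.2%), the NF-kB consensus in 1 (2.08%, against 4.51%), the interferon-stimulated response element in 1 (2.08%, against 3.44%) and the ER stress response element in 0 (against 0.119%). The members' windows had a median of 20 CpG and 61.7% GC, against 7 CpG and 52.7% GC over all windows. These matches are descriptions of letters, and no binding was measured.

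Among the members of late endosomes, lysosomes and autophagy, 4 of 8 tested rose and 2 fell with either preparation (75% called, beside 52.2% of all genes with oAb and 56.3% with fAb). Rab20, a GTPase of maturing phagosomes in macrophages, changed most. Its gene (chr8:11453518-11478710, mm10, minus strand) had 37, 36.1, 28.6 and 32.2 normalised CPM in oAb libraries, 32, 24.0, 32.3 and 34.7 CPM in fAb libraries and 5.45, 5.18, 7.90 and 5.65 CPM in scramble libraries. All 8 treated libraries were above all scramble libraries. The rise was 5.56-fold with oAb (log2 fold change 2.48 ± 0.16 SE, edgeR adjusted p = 1.7e-06) and 5.23-fold with fAb (2.39 ± 0.17, adjusted p = 3.94e-06). It was as large within the Timm23 set (2.56 with oAb), within the Gm10273 set (2.52 with oAb and 2.55 with fAb) and without scramble library 3 (2.63 with oAb and 2.54 with fAb). Of its exon bases, 25.6% overlap E230013L22Rik on the other strand, and since it is not stated whether counting used strand, reads from the 2 cannot be told apart there.

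Rab7b, which acts in transport from late endosomes to the trans-Golgi network, had 160.4, 153, 182 and 179 CPM in oAb, 164, 170.4, 178 and 171 CPM in fAb and 121, 113, 111 and 113 CPM in scramble libraries. It rose with both, by 0.56 ± 0.09 log2 with oAb (edgeR adjusted p = 0.000526) and 0.62 ± 0.07 with fAb (6.77e-05). Rab7 itself rose by 0.27 ± 0.08 with oAb (edgeR adjusted p = 0.0182) and 0.24 ± 0.08 with fAb (0.0272), with 329, 331, 332 and 346 CPM in oAb, 303, 317, 328 and 333 CPM in fAb and 266, 271, 293 and 286 CPM in scramble libraries. The groups did not overlap, but the call was lost without oAb library 4 or scramble library 2 in the first comparison and without fAb library 2, 3 or 4 or scramble library 1 or 2 in the second, with an adjusted p of 0.0574 to 0.0873 in these fits. Under upper quartile scaling Rab7 was 0.10 with oAb (adjusted p = 0.330) and 0.05 with fAb (0.604), and within the Timm23 set it was 0.23 with oAb (0.208). Rab12, which acts in delivery of membrane receptors to lysosomes, rose by 0.67 ± 0.10 and 0.69 ± 0.10 (edgeR adjusted p = 0.000448 and 0.000246). Its levels were 40.6 to 44.4 CPM in oAb, 40.7 to 44.3 CPM in fAb and 23.6 to 30 CPM in scramble libraries.

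Rab9, which returns mannose 6-phosphate receptors from late endosomes to the Golgi, fell. It had 21.9, 19.4, 15.9 and 18 CPM in oAb, 18.9, 19.2, 18.6 and 17.2 CPM in fAb and 25.2, 25.5, 28.0 and 23.6 CPM in scramble libraries, with no overlap. The log2 fold change was -0.44 ± 0.12 with oAb (edgeR adjusted p = 0.0114) and -0.43 ± 0.09 with fAb (0.00365), and within the Timm23 set it was -0.31 with oAb (0.168). Rab34, which acts in lysosome positioning and phagosome maturation, had 12.5, 13.5, 9.91 and 10.6 CPM in oAb, 9.92, 8.66, 11.4 and 10.0 CPM in fAb and 12.6, 16.0, 22.0 and 16.5 CPM in scramble libraries. The oAb libraries overlapped those of scramble and the fAb libraries did not. It passed at -0.53 ± 0.18 with oAb (edgeR adjusted p = 0.0352), a call lost without oAb library 1, 3 or 4 or scramble library 2 or 4 (adjusted p = 0.0588 to 0.0976), and fell by 0.71 with fAb (SE 0.18, adjusted p = 0.00749). Within the Gm10273 set it was -0.26 with oAb and -0.27 with fAb (adjusted p = 0.148 and 0.186). Rab24, linked to autophagy, and Rab39 did not pass, at -0.29 ± 0.16 and 0.07 ± 0.20 with oAb and -0.28 ± 0.16 and 0.29 ± 0.23 with fAb. Rab24 shares 62.4% of its exon bases with Prelid1 on the other strand and passed with both preparations without scramble library 4.

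At early endosomes 4 of 6 tested members rose and 1 fell with either preparation (83.3% called, beside 52.2% and 56.3% of all genes). Rab21 (chr10:115287084-115315594, minus strand), which carries integrins through early endosomes, had 110.3, 106, 112 and 109 CPM in oAb, 105, 102, 109 and 109 CPM in fAb and 64.4, 65.0, 59.4 and 62.4 CPM in scramble libraries. It rose 1.74-fold with each, by 0.80 ± 0.08 log2 with oAb and 0.80 ± 0.07 with fAb (edgeR adjusted p = 2.14e-05 and 1.62e-05). These libraries were far from overlapping, and the spread within each group was a few CPM. Rab22a, of early and recycling endosomes, had 65.3, 66.1, 64.5 and 64.7 CPM in oAb, 60.4, 59.7, 63.2 and 61.9 CPM in fAb and 49.3, 40.8, 33.3 and 40.9 CPM in scramble libraries. No treated library overlapped a scramble library, and its rise was 0.67 ± 0.12 and 0.61 ± 0.11 (edgeR adjusted p = 0.00121 and 0.00139).

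The Rab5 paralogs, which recruit the tether EEA1 and a phosphoinositide kinase to early endosomes, did not move alike. Rab5a (chr17:53479234-53507680, plus strand) had 59.5, 58.5, 59.4 and 57.7 CPM in oAb, 63.2, 63.1, 58.7 and 55.0 CPM in fAb and 43.3, 44.1, 31.3 and 37.4 CPM in scramble libraries, and rose by 0.59 ± 0.12 and 0.66 ± 0.12 (edgeR adjusted p = 0.00229 and 0.00134). Rab5c had 265, 269, 229.9 and 246 CPM in oAb, 224, 208, 240.1 and 241 CPM in fAb and 150.5, 166, 209 and 179 CPM in scramble libraries, and rose by 0.52 ± 0.12 and 0.41 ± 0.11 (edgeR adjusted p = 0.00403 and 0.0131). The highest scramble library of Rab5c, library 3, lay above the lowest fAb library. Under upper quartile scaling the fAb value of Rab5c was 0.22 (adjusted p = 0.114). Rab5b had 84.2, 85.9, 84.6 and 85.6 CPM in oAb, 87.5, 88.1, 87.5 and 89.2 CPM in fAb and 104, 92.2, 68.5 and 89.0 CPM in scramble libraries, which spanned both other groups. It did not pass, at -0.05 ± 0.12 and 0.03 ± 0.12, but within the Gm10273 set it was -0.26 with oAb (adjusted p = 0.0114).

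Rab31 (chr17:65651729-65772752, minus strand), a relative of Rab22a that acts between the trans-Golgi network and endosomes, fell. It had 99.3, 101, 109 and 110.2 CPM in oAb, 106, 109, 117 and 124 CPM in fAb and 259, 238, 216 and 251 CPM in scramble libraries. Every scramble library was above 200 CPM and every treated one below 130 CPM. The level was 2.30-fold lower with oAb (-1.20 ± 0.09 log2, edgeR adjusted p = 4.03e-06) and 2.06-fold lower with fAb (-1.04 ± 0.09, adjusted p = 8.62e-06), and kept its call in every other fit tried.

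**Figure D3:**
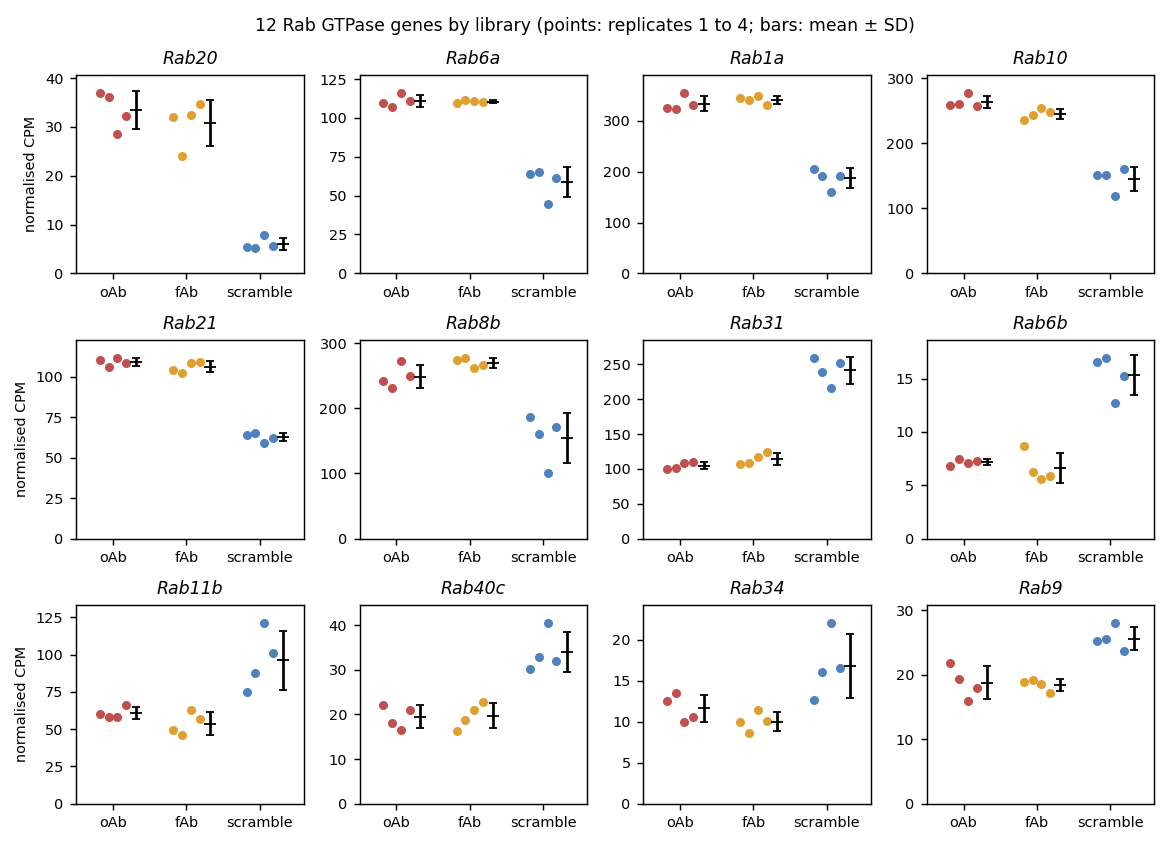
Normalised CPM of 12 Rab GTPase genes in each library (points, replicates 1 to 4 from left to right within oAb, fAb and scramble; bars are mean ± SD, axes start at 0). Read row by row from the top left, the first 6 genes rise with both preparations and the last 6 fall. Scramble library 3 is the lowest control in Rab6a, Rab1a, Rab10, Rab21, Rab8b, Rab31 and Rab6b. It is the highest control in Rab20, Rab11b, Rab40c, Rab34 and Rab9.

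Among the recycling endosome members, 0 of 5 tested rose and 1 fell with either preparation, where 25.2% of all genes rose and 27% fell with oAb and 27.6% rose and 28.8% fell with fAb. Rab11b, which together with Rab11a returns cargo from recycling endosomes to the surface, had 60.2, 58.2, 58.1 and 66.4 CPM in oAb, 49.2, 45.8, 63.0 and 56.5 CPM in fAb and 74.8, 87.4, 121 and 101 CPM in scramble libraries. It fell by 0.66 on the log2 scale with oAb (SE 0.15, edgeR adjusted p = 0.00409) and by 0.81 with fAb (SE 0.16, adjusted p = 0.0026). Within the Gm10273 set the values were -0.23 with oAb and -0.42 with fAb (adjusted p = 0.0425 and 0.0364), and within the Timm23 set -0.79 with oAb (0.0187). Rab11a had 72.8, 71.9, 68.4 and 67.6 CPM in oAb, 65.3, 65.0, 64.0 and 62.5 CPM in fAb and 55.2, 63.1, 79.1 and 58.4 CPM in scramble libraries. Scramble library 3 was the highest of the 12, and Rab11a did not pass with either (0.14 ± 0.12 and 0.04 ± 0.12). Within the Gm10273 set it was 0.34 with oAb and 0.28 with fAb (adjusted p = 0.00298 and 0.0159). Rab14, Rab35 and Rab4b, which also serve recycling routes, did not pass either, at -0.10, 0.19 and -0.32 with oAb and -0.07, 0.15 and -0.57 with fAb. Rab4b shares 65.0% of its exon bases with Gm21983 on the same strand, so its counts are uncertain, and its fAb value passed under 5 of 18 other settings, leaving out scramble library 1 among them, which also gave a call with oAb.

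In the group of the endoplasmic reticulum and Golgi, 4 of 10 tested members rose and 1 fell with either preparation (50% called, near the 52.2% and 56.3% of all genes). Rab6a, which drives retrograde transport at the Golgi, had 109, 107, 116 and 111 CPM in oAb, 109.6, 111, 111 and 110.0 CPM in fAb and 64.2, 65.0, 44.4 and 61.1 CPM in scramble libraries. It rose by 0.92 ± 0.13 and 0.95 ± 0.12 (edgeR adjusted p = 0.000228 and 0.000141). Its paralog Rab6b, known mainly from neurons, had 6.84, 7.43, 7.09 and 7.31 CPM in oAb, 8.64, 6.26, 5.58 and 5.84 CPM in fAb and 16.5, 16.9, 12.8 and 15.2 CPM in scramble libraries. Rab6b moved the opposite way, by -1.10 ± 0.12 and -1.18 ± 0.17 (edgeR adjusted p = 5.87e-05 and 0.000271), and neither paralog overlapped between the treated and the scramble libraries. Of Rab6a exon bases, 19.0% overlap Mrpl48 on the other strand.

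Rab1a, which acts with Rab1b between the endoplasmic reticulum and the Golgi, had 326, 322, 355 and 330.3 CPM in oAb, 344, 341, 348 and 330.2 CPM in fAb and 206, 192, 160.0 and 191 CPM in scramble libraries. Every treated library was above every scramble library, and the rise was 1.79-fold with oAb and 1.87-fold with fAb (0.84 ± 0.10 and 0.90 ± 0.09 log2, edgeR adjusted p = 8.08e-05 and 2.77e-05). Rab1b had 218, 229, 184 and 199.7 CPM in oAb, 168, 154, 183 and 187 CPM in fAb and 158, 198, 302 and 227 CPM in scramble libraries, and did not pass (-0.09 ± 0.18 and -0.32 ± 0.18). Its scramble libraries overlapped both other groups, with library 1 the lowest of them and library 3 the highest. Within the Gm10273 set Rab1b was 0.32 with oAb (adjusted p = 0.00311) and 0.20 with fAb (0.131), the other direction, and without scramble library 1 it passed with fAb at -0.47 (0.0246). Rab18, found on lipid droplets, and Rab33b, a Golgi GTPase that binds the autophagy protein Atg16l1, rose by 0.54 each with oAb (edgeR adjusted p = 0.00511 and 0.00215) and by 0.57 and 0.67 with fAb (0.00322 and 0.000761). Rab2a and Rab2b, which act between the Golgi and the endoplasmic reticulum, and Rab19 did not pass, with values between -0.18 and 0.18. Rab2b shares 64.0% of its exon bases with Tox4 and Gm43766 on the other strand, so its counts are uncertain.

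Rab43, a Golgi GTPase, varied widely within groups. It had 10.9, 10.8, 1.12 and 2.10 CPM in oAb, 2.32, 1.17, 0 and 1.64 CPM in fAb and 1.05, 6.81, 4.35 and 6.76 CPM in scramble libraries. The high libraries were the 5 of the Timm23 set. Of its exon bases 75.4% overlap the predicted gene Gm45140 on the same strand, and 74.5% of its 50-base words occur there too. Rab43 took 23.0% to 64.8% of the counts at the 2 genes in the 5 libraries of the Timm23 set and 0% to 12.3% in the 7 of the Gm10273 set. Its fold changes of 0.40 ± 0.74 with oAb and -1.82 ± 0.75 with fAb did not pass (edgeR adjusted p = 0.675 and 0.0644). With the library set as a term they were 0.81 with oAb (adjusted p = 0.0172) and 0.36 with fAb (0.83). Within the Timm23 set the oAb value was 0.87 (0.0368), and within the Gm10273 set the values were 0.65 with oAb (0.258) and 0.38 with fAb (0.799), so the direction with fAb depends on the library sets. Rab43 passed with fAb under upper quartile scaling, at -2.0 (0.042), and without scramble library 1 (adjusted p = 0.015). Per library total, the 2 genes together had 15.8 to 18.9 CPM in oAb, 15.7 to 21.0 CPM in fAb and 19.1 to 28.0 CPM in scramble libraries. Within the Timm23 set this sum was 17.6 and 15.8 CPM in oAb against 25.3, 19.1 and 24.2 CPM in scramble libraries. There the sum was lower with oAb while Rab43 alone was higher. With the exon overlap with Gm45140, the values of Rab43 are uncertain.

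**Figure D4:**
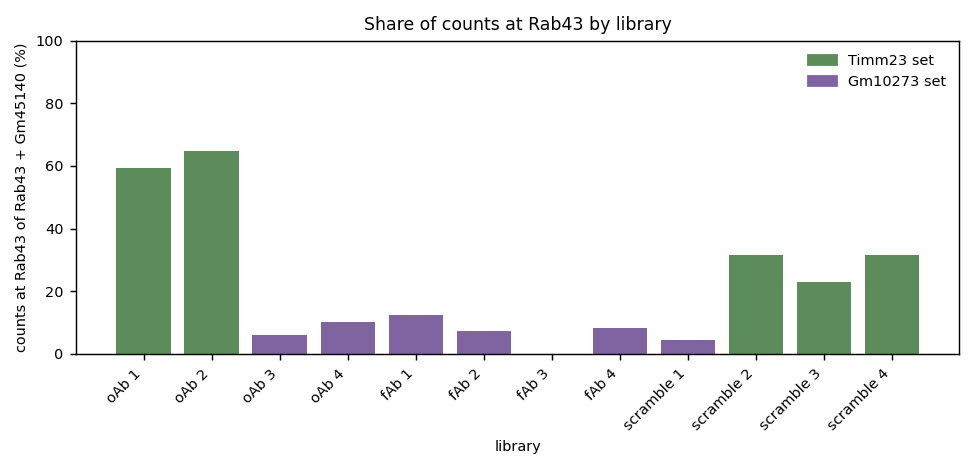
Counts at Rab43 as a percentage of the counts at Rab43 and the overlapping Gm45140, 1 bar per library, coloured by library set; fAb library 3 has 0%. The Timm23 set bars reach 23.0% to 64.8% and the Gm10273 set bars stay at or below 12.3%, across the treatment groups.

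Of the secretory members, 3 of 5 tested rose with oAb and 2 with fAb, and none fell with either (60% and 40% called, beside 52.2% and 56.3% of all genes). Rab10, which carries exocytic vesicles to the surface and is a substrate of the kinase LRRK2, had 259, 260.2, 278 and 258 CPM in oAb, 236, 243, 255 and 247 CPM in fAb and 151, 151, 118 and 160.4 CPM in scramble libraries. There was no overlap with scramble, and it rose by 0.86 ± 0.11 and 0.79 ± 0.10 (edgeR adjusted p = 0.000112 and 0.000139). Rab8b, of post-Golgi exocytosis, had 242, 232, 273 and 249 CPM in oAb, 274, 278, 262 and 266 CPM in fAb and 187, 159.9, 100.3 and 171 CPM in scramble libraries. Scramble library 3 was far below the rest, and the rise was 0.69 ± 0.18 and 0.84 ± 0.17 (edgeR adjusted p = 0.0089 and 0.00231). Its paralog Rab8a had 100.1, 102, 113 and 107 CPM in oAb, 93.2, 97.3, 108 and 106 CPM in fAb and 75.6, 82.5, 101 and 84.5 CPM in scramble libraries, with overlap through scramble library 3. Rab8a stood at the threshold, at 0.30 ± 0.10 with oAb (edgeR adjusted p = 0.0355) and 0.27 ± 0.11 with fAb (0.0548). The oAb call was lost without any one library other than scramble library 3 (adjusted p = 0.055 to 0.0963). The fAb comparison passed in 7 of 18 other fits, among them DESeq2 (adjusted p = 0.0268), limma voom (0.0464) and edgeR with the replicate number as a block (0.0337). Upper quartile scaling gave 0.13 with oAb (adjusted p = 0.320) and 0.09 with fAb (0.508), the Timm23 set 0.19 with oAb (0.355), and the Gm10273 set 0.58 with oAb (5.76e-05) and 0.48 with fAb (0.0027). With that block 21 members were called with oAb (46.1% of all genes) and 24 with fAb (56.8%). Rab3a and Rab3d, of regulated exocytosis, did not pass, at -0.47 ± 0.23 and -0.25 ± 0.13 with oAb and -0.36 ± 0.24 and -0.27 ± 0.12 with fAb. Every treated library of Rab3d was below every scramble library, and it passed with fAb in 4 of 18 other fits, leaving out scramble library 1 among them. Under upper quartile scaling Rab3a and Rab3d passed with oAb (edgeR adjusted p = 0.0394 and 0.0216).

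Rab32, which serves lysosome-related organelles and phagosomes, had 120.4, 120.0, 129 and 120.4 CPM in oAb, 103, 104, 113 and 117 CPM in fAb and 76.6, 81.2, 86.8 and 86.0 CPM in scramble libraries. There was no overlap with scramble here either, and it rose by 0.57 ± 0.08 and 0.44 ± 0.08 (edgeR adjusted p = 0.000279 and 0.00173). Rab29, which recruits LRRK2 to membranes, had 17.3, 17.5, 15.7 and 19.0 CPM in oAb, 16.8, 17.8, 18.3 and 15.5 CPM in fAb and 15.8, 14.9, 21.7 and 13.5 CPM in scramble libraries, overlapped in both comparisons and did not pass (0.08 ± 0.15 and 0.09 ± 0.15). Rab7b and Rab29 are neighbours on chromosome 1, with 151785 bases between them, and Rab43 and Rab7 lie 186942 bases apart on chromosome 6.

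The remaining members have roles at cilia or in ubiquitination. Rab40c, whose SOCS box joins it to a ubiquitin ligase, had 22.2, 18.1, 16.5 and 21.0 CPM in oAb, 16.4, 18.7, 20.9 and 22.8 CPM in fAb and 30.2, 33, 40.5 and 32.1 CPM in scramble libraries. It fell by 0.80 and 0.75 on the log2 scale (SE 0.13 and 0.14, edgeR adjusted p = 0.000812 and 0.00132). Rab28, known from the photoreceptor cilium, had 17.6, 18.5, 16.1 and 14.9 CPM in oAb, 16.5, 13.7, 14.2 and 15.8 CPM in fAb and 23.3, 23.3, 21.3 and 23.5 CPM in scramble libraries, and fell by 0.44 and 0.56 (SE 0.10 and 0.10, edgeR adjusted p = 0.00538 and 0.000888), with -0.32 for oAb within the Timm23 set (0.123). Neither overlapped between treated and scramble libraries. Rab23, a negative regulator of hedgehog signalling, had 9.73, 11.4, 9.25 and 10.9 CPM in oAb, 11.0, 13.3, 11.4 and 11.0 CPM in fAb and 9.91, 9.22, 8.04 and 8.81 CPM in scramble libraries. It passed with fAb (0.41 ± 0.12, edgeR adjusted p = 0.0135), but not without fAb library 2 and not with oAb (0.20 ± 0.12, adjusted p = 0.205).

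Shares within paralog families follow from these values and compare the paralogs per transcript length. Rab6a made up 95.4% ± 0.254 of the summed TPM of Rab6a and Rab6b in oAb, 95.8% ± 0.882 in fAb and 83.7% ± 0.852 in scramble libraries (SD, n = 4 each). Rab11a made up 70.2% ± 1.84 of its pair in oAb and 71.0% ± 3.19 in fAb, against 57.7% ± 2.73 in scramble libraries, while the pair's sum was 88.9 ± 3.80 TPM in oAb, 85.2 ± 2.35 TPM in fAb and 110.5 ± 5.22 TPM in scramble libraries. Rab1a made up 43.8% ± 3.41 in oAb and 48.8% ± 2.45 in fAb, against 30% ± 7.59 in scramble libraries. In these 3 pairs no treated library overlapped a scramble library. Rab7 made up 77.9% ± 1.29 and 76.9% ± 0.462 of Rab7 and Rab7b in oAb and fAb, against 81.2% ± 1.22 in scramble libraries, a smaller shift the other way. The Rab7 share did not overlap either, but narrowly, at up to 79.4% in oAb and 77.5% in fAb against at least 79.6% in scramble libraries. For Rab2a, Rab5c and Rab8b the treated libraries overlapped those of scramble.

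**Figure D5:**
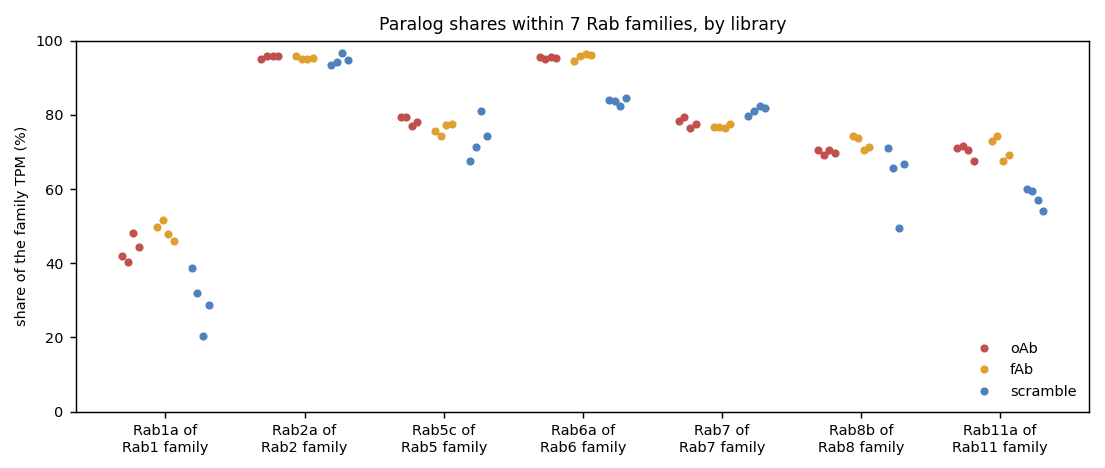
Share of the first-named gene in the summed TPM of its paralog family (percent, axis from 0 to 100), 1 point per library, with oAb (red), fAb (orange) and scramble (blue) from left to right. Rab1a, Rab6a and Rab11a shares are higher in every treated library than in any scramble library, and Rab2a shares stay at 93.4% to 96.8% throughout.

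In fAb against oAb, 0 of 39 members and 0% of 10878 genes passed edgeR's test, and DESeq2 called 0 members and 0.147% of genes. At an unadjusted p under 0.05 there were 5 members (12.8%) and 1391 genes (12.8%), and the smallest adjusted p of a member was 0.375. The difference for Rab20 was -0.12 ± 0.12 log2 (SE), for Rab6a -0.01 ± 0.04, for Rab21 -0.04 ± 0.04, for Rab31 0.12 ± 0.06 and for Rab6b -0.12 ± 0.14. These intervals are narrow beside the changes against scramble, and they do not show that the preparations act alike. The libraries of the 2 preparations did not overlap for 6 members (15.4%, against 6.31% of all genes). Rab10, Rab11a, Rab22a, Rab32 and Rab35 were lower in every fAb library, by -0.10 ± 0.05, -0.13 ± 0.05, -0.09 ± 0.04, -0.16 ± 0.05 and -0.07 ± 0.05, and Rab5b was higher, by 0.05 ± 0.04. The Timm23 set holds 2 oAb libraries and 0 fAb libraries, and within the Gm10273 set 0 members passed too.

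Regulators of the family were counted over lists of known genes of each class, and the genes named are those with the smallest adjusted p of their list. Of 42 exchange factors, all tested, 8 rose and 16 fell with oAb and 9 rose and 17 fell with fAb, with a median log2 fold change of -0.27 and -0.18. Rab3il1, an exchange factor for Rab3a and Rab8a, averaged 4.46 CPM in oAb, 4.64 CPM in fAb and 33.3 CPM in scramble libraries (-2.89 ± 0.17 and -2.80 ± 0.18 log2, edgeR adjusted p = 1e-06 and 1.94e-06). Rabgef1, the exchange factor of Rab5, averaged 40.3 CPM in oAb and 40.7 CPM in fAb against 16.9 CPM in scramble libraries and rose by 1.26 ± 0.09 and 1.31 ± 0.09. Madd, which acts on Rab3 and Rab27, fell by 1.20 and 1.05 on the log2 scale. Of 37 TBC domain proteins tested, 5 rose and 14 fell with oAb and 6 rose and 15 fell with fAb. Tbc1d13, which acts on Rab35, averaged 214 CPM in oAb, 197 CPM in fAb and 78.0 CPM in scramble libraries and rose by 1.46 ± 0.10 and 1.38 ± 0.09. Tbc1d8 fell to 0.698 CPM in oAb and 0.682 CPM in fAb, against 4.97 CPM in scramble libraries, Tbc1d9 rose by 1.89 ± 0.17 with oAb, and Sgsm2 fell by 1.64 on the log2 scale with fAb.

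Effectors and tethers held the largest rise of these lists. Rab11fip1, which links Rab11 to recycling endosomes, averaged 96.6 CPM in oAb, 96.9 CPM in fAb and 11.9 CPM in scramble libraries and rose by 3.02 ± 0.19 and 3.06 ± 0.18 log2 (edgeR adjusted p = 1.23e-06 and 1.08e-06). Rab11fip5, of the same family, fell by 1.49 with oAb and 1.60 with fAb on the log2 scale, to 39.9 CPM and 36.3 CPM, against 113 CPM in scramble libraries. Mical1, an actin-oxidising enzyme that binds Rab proteins, averaged 5.60 CPM in oAb, 5.89 CPM in fAb and 36.7 CPM in scramble libraries (-2.71 ± 0.11 and -2.60 ± 0.12). In all, 15 of 48 tested effectors rose and 8 fell with oAb, and 16 rose and 8 fell with fAb. Of 15 genes for GDP dissociation, escort and prenylation, 4 rose and 1 fell with oAb and 4 rose and 4 fell with fAb, led by Yipf5 (0.68 ± 0.08 and 0.64 ± 0.09), Rabif (0.53 ± 0.09 and 0.53 ± 0.09) and Yipf6 (0.64 ± 0.17 and 0.79 ± 0.16). The share called in the 4 lists was 33.3% to 57.1% with oAb and 50% to 61.9% with fAb, beside 52.2% and 56.3% of all genes. In fAb against oAb no gene of the 4 lists passed.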

How the data were processed

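RNA from 12 libraries was made with a spin column kit and a stranded mRNA kit from 2 ug of RNA, per the labels' protocols. The authors deposited, for each gene, the total count and TPM of each library in 2 tables, one with the oAb and one with the fAb libraries beside the same scramble libraries. Trimmed reads were used, per the file headers, and the submitters' processing notes name mm10. Which aligner and counter were used, and whether strand was used, is not given in the sources read. The deposited TPM served for levels between genes, and the deposited counts served for tests. Each comparison used its 8 libraries in edgeR 4.0.16 (R 4.3.3) with a filter at a minimum count of 10, TMM scaling and the robust quasi-likelihood F test, two-sided, with Benjamini-Hochberg adjustment over all genes tested and a threshold of 0.05. SE is the fold change over the square root of F. Printed CPM are TMM-normalised over 12 libraries. Fits were tested on simulated data. Alternatives were DESeq2 1.42.0, limma 3.58.1 (voom), other scaling and filters, a replicate block, the library set and left-out libraries.

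Same-numbered fAb and scramble libraries deviated together, with correlations of 0.217, 0.199, 0.286 and 0.146 between their deviations from the group means, but fAb library 2 with scramble library 1 (0.539), fAb 4 with scramble 3 (0.366) and fAb 1 with scramble 2 (0.312) correlated more, so only fAb library 3 correlated best with its own number. The labels give the numbers without saying what they mark. Named with full values were the members with the 6 largest rises and 6 largest falls among those called at a mean of at least 2 CPM, up to 5 called in fAb against oAb, and a list of endosomal, Golgi and lysosomal members. Members outside that rule are named as parts of their role group. The members, the role groups, the lists of regulators and the library sets were chosen with earlier results of these data known. Promoters are RefSeq windows of GRCm38.p6, found for 48 of 59 members.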

Additional observations from a re-analysis of the deposited data

Results flagged for a closer look

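Among the 27 named members, those with enough counts gave 69 groups of 4 libraries. In 4 of these groups 1 value lay far from the other 3, where chance gives about 1 in 20, so this is near the number chance would give. All 4 values were in oAb library 3 or scramble library 3. Rab10 was highest in oAb library 3, at 277.826 CPM against 257.941 to 260.243 CPM in the other oAb libraries. Rab32 was also highest in oAb library 3, at 128.676 CPM against 119.967 to 120.378 CPM. Rab20 was highest among controls in scramble library 3, at 7.897 CPM against 5.184 to 5.646 CPM, and Rab28 was lowest there, at 21.299 CPM against 23.269 to 23.454 CPM.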

How the results depend on the processing

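Of the 23 members called with oAb, 16 kept the call under all 19 other fits. Of the 23 called with fAb, 12 kept it under all 18, and none changed sign in either comparison. The same was not counted over all genes, so this says nothing particular of the family. With oAb 13 members were called at a 1.5-fold minimum (37.7% of all genes), against 23 in the main result. With the library set as a term 13 were called with fAb (34.7% of all genes), also against 23. Leaving out 1 library at a time gave 20 to 27 members with oAb, 21 to 29 with fAb and 0 in fAb against oAb. The share of all genes called in these fits moved too, from 44.5% to 64.4% with oAb and from 49.1% to 68% with fAb. For members and for all genes, the highest values came without scramble library 3. With the replicate number as a block 21 members were called with oAb (Rab34 and Rab7 lost), beside 46.1% of all genes. The block gave 24 members with fAb (Rab8a gained), beside 56.8% of all genes, and 0 in fAb against oAb. Same-numbered correlations were -0.267, 0.0692, -0.284 and 0.033 for oAb with scramble. For fAb with oAb they were 0.332, -0.287, -0.0695 and 0.137. With 4 libraries in a group and no label for the numbers, these values cannot show whether the numbers pair libraries.

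Of the uncalled members, 9 of 16 with oAb, 10 of 16 with fAb and 14 of 39 in fAb against oAb changed sign in at least 1 other fit, and the cause was not tested. For those under the naming rule the log2 values were as follows. With oAb, upper quartile scaling gave -0.0333 for Rab11a and -0.0895 for Rab29, the library set as a term gave 0.0269 for Rab1b, and Rab1b was 0.320 within the Gm10273 set and Rab5b 0.0392 within the Timm23 set. Leaving out 1 library gave -0.219 to 0.0999 for Rab1b (positive without scramble library 3), -0.0002 to 0.239 for Rab29 (negative without scramble library 4) and -0.159 to 0.0347 for Rab5b (positive without scramble library 1). With fAb, upper quartile scaling gave -0.145 for Rab11a, -0.0981 for Rab29 and -0.156 for Rab5b, and all 12 libraries in 1 fit gave -0.0073 for Rab5b. The library set as a term gave 0.187 for Rab1b and -0.189 for Rab5b, and within the Gm10273 set these were 0.195 and -0.181. Leaving out 1 library gave -0.0381 to 0.168 for Rab11a (negative without scramble library 1) and -0.0687 to 0.101 for Rab5b (negative without scramble library 3). In fAb against oAb, the library set as a term gave -0.0023 for Rab1a, 0.02 for Rab20 and -0.0733 for Rab7b, and within the Gm10273 set Rab20 was 0.0292 and Rab7b -0.064. Rab6a was 0.0146 under upper quartile scaling and 0.0068 with no filter. Leaving out 1 library gave -0.0716 to 0.0189 for Rab29 (positive without oAb library 4 or fAb library 4), -0.009 to 0.0175 for Rab6a (positive without oAb library 3 or fAb library 1) and -0.0107 to 0.0594 for Rab7b (negative without oAb library 2).

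Depth limits the 20 members under the filter, for which changes below the counting intervals given were not detectable. The Gm10273 set has 1 scramble library, so its values rest on that library.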
